A study of Homo sapiens with 6 samples.

Results

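The genes described here encode the 5 subunits of NF-kB and 5 inhibitors of the pathway that NF-kB itself induces. They were listed by name for their roles, with earlier results of these data known. The subunits were NFKB1, NFKB2, RELA, RELB and REL, and the inhibitors were NFKBIA, NFKBIE, TNFAIP3, BIRC3 and TNIP1. BIRC3 is counted as an inhibitor by this listing, and the restraint described for it below concerns the non-canonical branch only. Each of the 10 genes matched 1 of the 19937 rows of the count table, and all 10 were among the 12450 genes that passed the filter on low counts. The study silenced SQLE, the gene of squalene epoxidase, an enzyme of cholesterol synthesis, in U2OS cells and asked which transcripts changed. U2OS is an established human osteosarcoma line. Both groups carried a lentiviral pGIPZ hairpin vector and were selected with puromycin as stable populations. The 3 shSQLE libraries came from cells with a hairpin against SQLE, and the 3 shControl libraries came from cells with a scrambled hairpin. The sources name no cytokine or other stimulus given to either group. They describe several hairpins against SQLE, of which 1 was taken forward, and leave unsaid whether replicate libraries were grown as separate cultures, so that SDs and p-values measure the spread among these libraries, which may be technical.

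NF-kB is a family of dimeric transcription factors. In resting cells, dimers such as p50 with RELA are held in the cytoplasm by IkB proteins. Ligands such as tumour necrosis factor or interleukin-1 activate the IkB kinase complex, IkB is marked for degradation, and the dimers enter the nucleus. There they induce inflammatory genes together with the genes of their own inhibitors, so that the transcripts of NFKBIA and TNFAIP3 are widely read as outputs of the pathway. A slower, non-canonical branch processes the NFKB2 product p100 to p52, which pairs with RELB.

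The targeted gene was low in the libraries labelled shSQLE, with 204 to 229 normalized counts of SQLE against 1349 to 1924 in shControl, where a normalized count is the count scaled to the mean effective library size. Libraries held 12212378 to 14393292 counts on genes, of which mitochondrial genes took 5.76% to 7.74%. Of 8 markers of mesenchymal and osteoblast-lineage cells, 5 passed the filter, and COL1A2, ALPL and BGLAP had mean normalized counts under 10. Among the 5, COL1A1 was called lower in shSQLE (63.5% of control, log2 fold change -0.65, adjusted p = 0.0452, edgeR), and SPARC, at 82.5% of control, had groups that did not overlap. The defining leukocyte markers PTPRC and CD3E were at 0 in all 6 libraries, and the 4 leukocyte markers together came to 4.62 to 5.43 normalized counts in shControl and 1.03 to 4.93 in shSQLE. The 4 epithelial markers, of which 1 was at 0 in all libraries, summed to 52.5 to 55.4 and 58.6 to 74.4, and the 3 endothelial markers, each with a mean under 10, to 12.7 to 15.7 and 2.06 to 6.90. Their part in the results below was not tested.

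Replicate 1 of shControl stood apart from the other libraries, and the way it did so followed the base composition of the transcripts. Over all genes tested, the median log2 ratio of shControl replicate 1 to the mean of shControl replicates 2 and 3 was -0.57 in the 3112 genes with the lowest GC content and 0.54 in the 3112 with the highest. In the 6 with a transcript GC content of at least 53.0% (NFKBIA, RELA, TNIP1, NFKBIE, NFKB2 and RELB), shControl replicate 1 was the highest control, with log2 ratios of normalized counts from 0.31 to 0.64. In the other 4 (NFKB1, TNFAIP3, REL and BIRC3), with a GC content of 35.8% to 50.1%, it was the lowest, with log2 ratios from -2.37 to -0.48. With smooth offsets for GC content and transcript length fitted in each library, the log2 ratios of the 6 GC-rich genes shrank to between -0.11 and 0.15, that of BIRC3 turned from -0.55 to 0.21, and those of TNFAIP3, NFKB1 and REL were still -0.40, -0.42 and -1.67. Before the offset, TNFAIP3 and NFKB1 were below the median of 0.16 for genes of like GC content. The results are therefore also given without this library, for the members one by one and for the wider pathway as counts per list. On the first principal component of the log2 counts, shControl replicate 1 lay at -10.0, near the shSQLE libraries (-19.0, -26.8 and -8.54). Replicates 2 and 3 of shControl lay at 30.3 and 34.2. Deviations of shControl replicate 1 from its group correlated at 0.54 with those of shSQLE replicate 2 and at -0.60 with those of shSQLE replicate 3. The fit without shControl replicate 1 keeps the controls farthest from shSQLE on that component, so its smaller p-values do not make it a cleaner test.

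**Figure D1:**
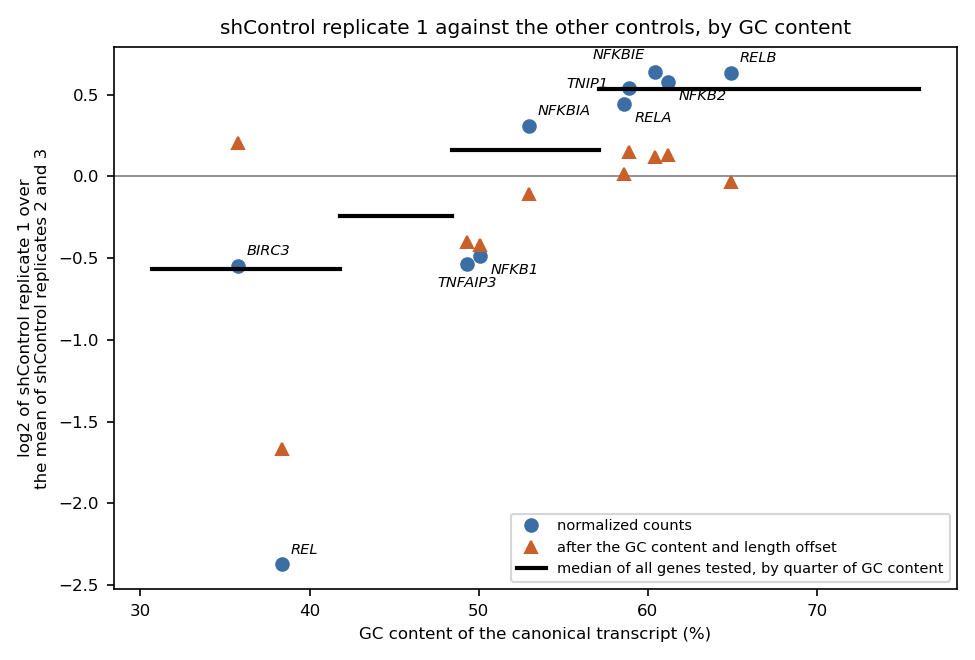
The log2 ratio of shControl replicate 1 to the mean of shControl replicates 2 and 3 (vertical axis) against the GC content of each gene's canonical transcript in percent (horizontal axis), for the 10 genes before (blue circles) and after (orange triangles) the GC content and length offset. Black lines are medians over all genes tested in 4 bins of GC content, from -0.57 to 0.54, and the 6 GC-rich genes lie above 0 before the offset while the other 4 lie below it.

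Promoter sequences of these genes are shown because most of the 10 are themselves known NF-kB targets. RefSeq promoter windows, which run from 250 bases before to 50 bases after an annotated start on GRCh38.p14, were matched by symbol for 8 of the 10 genes, RELB and NFKBIE not matched, and gave 13 windows in all. They were searched on both strands for the NF-kB consensus (the kB motif of 10 letters). A match was found in 8 of the 13 windows (61.5%) and in 7 of the 8 genes, RELA being the exception, whereas 5.91% of all 35116 windows and 9.14% of the tested genes with a window held a match. A match describes the letters only, and not a bound site. In the lines below, the gene's strand is printed 5′ to 3′, and capitals mark the letters of each match. The first lines belong to the inhibitors TNFAIP3 (chr6:137867173-137867232, + strand), BIRC3 (chr11:102317260-102317319 and chr11:102317324-102317383, + strand), NFKBIA (chr14:35404796-35404855, - strand) and TNIP1 (chr5:151081042-151081101, - strand). The others belong to the subunits NFKB2 (chr10:102394460-102394519 in its window 2, chr10:102395504-102395563 and chr10:102395659-102395718 in its window 3, + strand), NFKB1 (chr4:102501285-102501344, + strand) and REL (chr2:60881502-60881561, + strand).
TNFAIP3: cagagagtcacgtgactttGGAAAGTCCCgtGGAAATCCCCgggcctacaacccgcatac
BIRC3, distal: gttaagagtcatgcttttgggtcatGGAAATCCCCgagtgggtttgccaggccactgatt
BIRC3, proximal: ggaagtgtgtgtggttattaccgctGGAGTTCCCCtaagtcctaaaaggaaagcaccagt
NFKBIA: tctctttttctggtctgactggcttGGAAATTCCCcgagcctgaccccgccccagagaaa
TNIP1: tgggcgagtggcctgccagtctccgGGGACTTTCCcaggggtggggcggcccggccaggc
NFKB2, window 2: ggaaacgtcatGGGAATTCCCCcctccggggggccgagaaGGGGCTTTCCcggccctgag
NFKB2, window 3, distal: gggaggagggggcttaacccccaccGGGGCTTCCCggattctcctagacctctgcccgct
NFKB2, window 3, proximal: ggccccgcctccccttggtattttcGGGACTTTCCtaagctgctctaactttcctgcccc
NFKB1: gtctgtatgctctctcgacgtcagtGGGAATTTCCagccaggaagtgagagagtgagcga
REL: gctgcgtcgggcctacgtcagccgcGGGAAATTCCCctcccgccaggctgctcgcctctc

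TNFAIP3 carried a pair of matches close together, at positions -67 to -58 and -55 to -46 from its RefSeq start, both on the opposite strand. All positions are counted from the RefSeq start of the window, which can differ from the gene start in the loci given below. The matches of NFKB2 and REL lie inside the gene spans given below. BIRC3 carried its matches farther out, at -199 to -190 and -135 to -126, and NFKBIA had a single match at -81 to -72. Window 3 of NFKB2 held matches at -176 to -167 and -21 to -12. In window 2 of NFKB2 and in REL, the capitals span 11 letters where a match on one strand overlaps a match on the other. Genes with a match moved in different ways in the counts: TNFAIP3 fell, as described next, while NFKB1, with a match at -49 to -40, gave nearly equal means in both groups.

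Of the 10 genes, 1 passed an adjusted p of 0.05 (edgeR quasi-likelihood F test, p-values adjusted by Benjamini-Hochberg over all genes tested), and it was lower in shSQLE (TNFAIP3). Over all genes tested, 2.84% passed as lower and 0.369% as higher. No member passed as higher, and 0 of the 10 were higher at an unadjusted p under 0.05, where 4.83% of all genes were. At that unadjusted p, 4 members were lower (TNFAIP3, BIRC3, NFKB2 and NFKBIA), against 9.89% of all genes. The libraries of the 2 groups did not overlap in 5 members, all with shSQLE below shControl (these 4 and NFKBIE), against 12.1% of all genes on that side. The log2 fold change was negative in 9 members and positive in RELA, with a median of -0.41 over the 10, -0.26 over the subunits and -0.42 over the inhibitors, beside -0.01 over all genes tested.

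**Figure D2:**
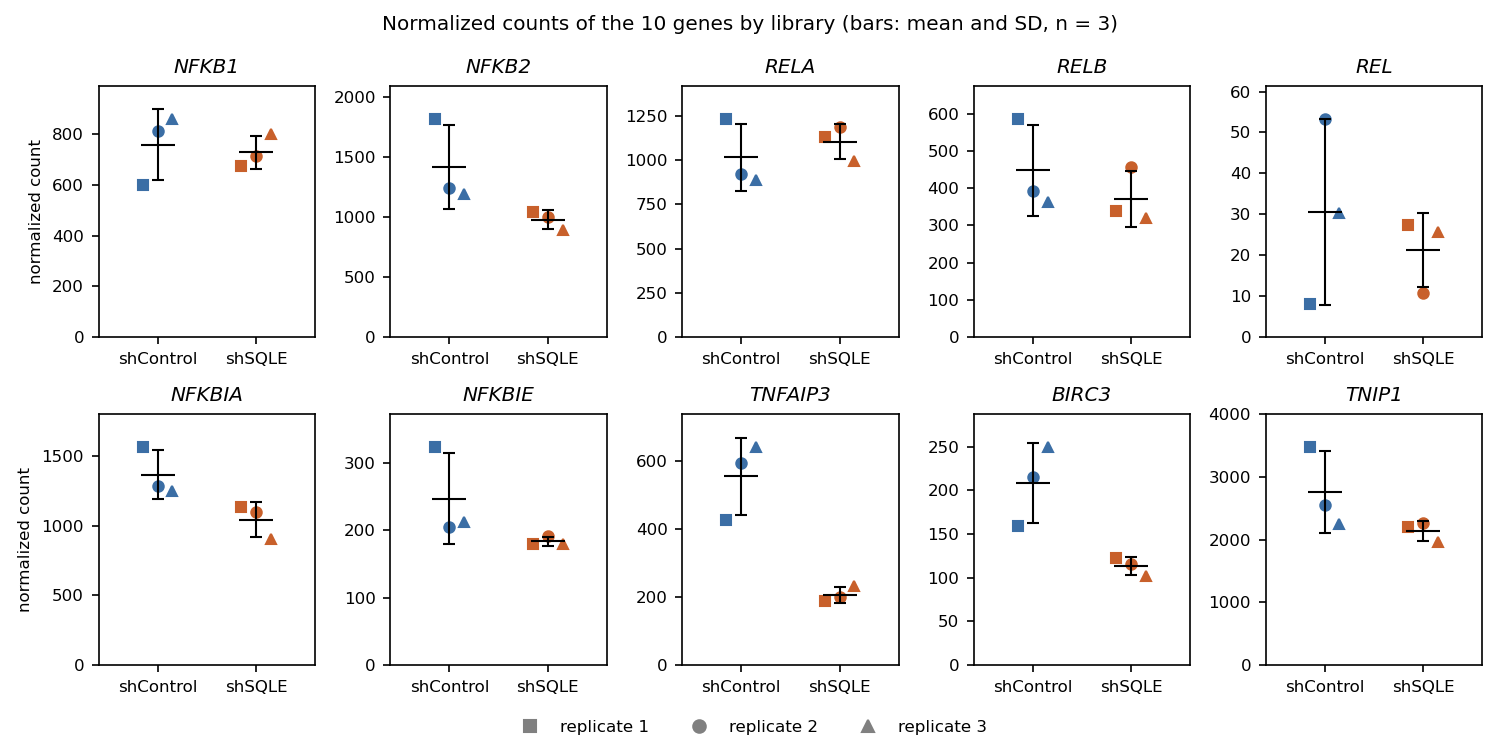
Normalized counts of the 10 genes in each of the 3 shControl and 3 shSQLE libraries (points, with shapes for replicates), with the mean and SD of each group as bars (n = 3). The shSQLE points lie below all shControl points in NFKB2, NFKBIA, NFKBIE, TNFAIP3 and BIRC3 and overlap them in the other 5 genes.

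The largest difference among the 10 belonged to TNFAIP3, which encodes A20, an enzyme that edits ubiquitin chains and shuts down signalling from the tumour necrosis factor and interleukin-1 receptors to NF-kB. TNFAIP3 (ENSG00000118503) lies on chromosome 6 of hg38 from 137867214 to 137883314, on the + strand. Its normalized counts in replicates 1 to 3 were 426, 595 and 643 for shControl and 187, 199 and 232 for shSQLE. Every shSQLE library was below every shControl library, and shControl replicate 1 was the lowest control. The mean fell from 555 ± 114 to 206 ± 23.4 (SD, n = 3 each), which is 37.2% of the control level. The log2 fold change was -1.43 (SE 0.19, 95% interval -1.86 to -1.0, adjusted p = 0.00711, edgeR). It ranged from -1.59 to -1.30 over 14 alternatives and stayed past the threshold in 12 of them. The call was lost without shSQLE replicate 1 (adjusted p = 0.0632) and without shSQLE replicate 2 (adjusted p = 0.0545). It held without shControl replicate 1 (-1.59, adjusted p = 8.82e-07), where 18.3% of all genes were called lower. It also held with the GC content and length offset (-1.42, adjusted p = 7.28e-05), where 10.4% were. For this and the other genes, less RNA per cell and fewer cells that express a gene cannot be told apart in bulk RNA.

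BIRC3 encodes cIAP2, a ubiquitin ligase that works at the tumour necrosis factor receptor and, with TRAF2 and TRAF3, keeps the kinase of the non-canonical branch at a low level. BIRC3 (ENSG00000023445) lies on chromosome 11 from 102317484 to 102339403, on the + strand. The normalized counts of BIRC3 were 159, 215 and 250 in shControl and 122, 115 and 102 in shSQLE. The groups did not overlap, with shControl replicate 1 the lowest control. The mean of 113 ± 10.5 in shSQLE was 54.3% of the shControl mean of 208 ± 45.8 (SD, n = 3 each), and the log2 fold change of -0.88 (SE 0.19, 95% interval -1.33 to -0.43) missed the threshold (adjusted p = 0.0568, edgeR). BIRC3 was past it in 4 of 14 alternatives: with DESeq2 (adjusted p = 0.00322), without the filter on low counts (adjusted p = 0.0479), with the GC content and length offset (adjusted p = 0.00651) and without shControl replicate 1 (log2 fold change -1.04, adjusted p = 0.000231). DESeq2 called 4.56% of all genes lower and 1.30% higher, and the fit without the filter called 2.26% lower and 0.275% higher. The offset fit called 10.4% lower and 7.14% higher, and the fit without shControl replicate 1 called 18.3% lower and 15.6% higher.

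NFKBIA encodes IkB-alpha, the inhibitor that is degraded first on stimulation and that newly made protein replaces. NFKBIA (ENSG00000100906) lies on chromosome 14 from 35401079 to 35404749, on the - strand. In shControl it had 1569, 1285 and 1249 normalized counts, and in shSQLE 1136, 1096 and 901. All shSQLE libraries were below all shControl libraries, of which replicate 1 was the highest. The means were 1368 ± 176 and 1044 ± 125 (SD, n = 3 each), and the log2 fold change of -0.39 (SE 0.14, 95% interval -0.72 to -0.06) did not pass (adjusted p = 0.246, edgeR).

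NFKBIE encodes IkB-epsilon, a slower member of the same inhibitor family. NFKBIE (ENSG00000146232) lies on chromosome 6 from 44258166 to 44265788, on the - strand, and had 324, 204 and 212 normalized counts in shControl and 180, 191 and 180 in shSQLE. The shSQLE libraries were the lower 3, with shControl replicate 1 far above the other controls, and the means were 247 ± 67.3 and 184 ± 6.46 (SD, n = 3 each). The log2 fold change of NFKBIE was -0.42 (SE 0.20, adjusted p = 0.393, edgeR) and -0.18 without that library.

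TNIP1 encodes ABIN-1, which binds ubiquitin chains and brings A20 to its substrates. TNIP1 (ENSG00000145901) lies on chromosome 5 from 151029945 to 151093577, on the - strand. Libraries of shControl held 3485, 2545 and 2242 normalized counts of TNIP1 and those of shSQLE 2195, 2261 and 1961. The groups overlapped, since shSQLE replicate 2 lay above shControl replicate 3, and the log2 fold change was -0.37 (SE 0.17, adjusted p = 0.383, edgeR), or -0.16 without shControl replicate 1.

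Among the subunits, NFKB2, which encodes p100 and its product p52, had the only groups that did not overlap. NFKB2 (ENSG00000077150) lies on chromosome 10 from 102394110 to 102402524, on the + strand. Its normalized counts were 1815, 1239 and 1191 in shControl and 1038, 1002 and 892 in shSQLE. The shControl replicate 1 value stood far above the rest, and shControl replicates 2 and 3 were still above every shSQLE library. The means were 1415 ± 347 and 977 ± 76.0 (SD, n = 3 each), with a log2 fold change of -0.53 (SE 0.18, 95% interval -0.94 to -0.12) that did not pass (adjusted p = 0.20, edgeR). Without shControl replicate 1 the difference of NFKB2 was smaller, at -0.31, and passed (adjusted p = 0.0184), in a fit where 18.3% of all genes were called lower.

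RELB, the partner of p52 in the non-canonical branch, lies on chromosome 19 from 45001461 to 45038192, on the + strand (ENSG00000104856). RELB had 587, 392 and 364 normalized counts in shControl and 339, 458 and 320 in shSQLE, so that shSQLE replicate 2 lay within the control range. Its log2 fold change of -0.26 (SE 0.22, 95% interval -0.78 to 0.25, adjusted p = 0.680, edgeR) was -0.02 without shControl replicate 1.

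RELA encodes p65, the activating subunit of the canonical dimer. RELA (ENSG00000173039) lies on chromosome 11 from 65653599 to 65663090, on the - strand, and was the only member with a positive log2 fold change. Its normalized counts were 1232, 922 and 888 in shControl and 1128, 1185 and 994 in shSQLE. The groups overlapped through shControl replicate 1, the highest of the 6 libraries, and the log2 fold change was 0.12 (SE 0.15, 95% interval -0.24 to 0.48, adjusted p = 0.804, edgeR). Without that library RELA was 0.29 higher on the log2 scale and passed (adjusted p = 0.0349), in a fit where 15.6% of all genes were called higher and 18.3% lower.

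NFKB1 encodes p105 and its product p50, the partner of RELA. NFKB1 (ENSG00000109320) lies on chromosome 4 from 102501330 to 102617302, on the + strand. Its normalized counts were 598, 813 and 860 in shControl and 673, 713 and 801 in shSQLE, and the shSQLE libraries all lay within the control range. The log2 fold change of NFKB1 was -0.06, with a 95% interval from -0.43 to 0.31 (adjusted p = 0.923, edgeR), and it was -0.20 without shControl replicate 1 (adjusted p = 0.130).

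REL encodes c-Rel, a subunit best known from lymphocytes. REL (ENSG00000162924) lies on chromosome 2 from 60881491 to 60931612, on the + strand, and was close to the lower end of what was measured, with 7, 59 and 31 raw counts in shControl and 28, 11 and 25 in shSQLE. These counts varied more within shControl than between the groups, and the 95% interval of the log2 fold change of -0.56 ran from -1.93 to 0.81 (adjusted p = 0.754, edgeR). Without shControl replicate 1, the library with 7 counts, the log2 fold change of REL was -0.98 (SE 0.37, adjusted p = 0.0537). No difference in REL passed the threshold in either fit.

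All 10 genes are annotated as protein-coding. Exons of a non-coding gene on the opposite strand overlap those of RELA (RELA-DT, 103 nt), TNFAIP3 (WAKMAR2, 95 nt) and BIRC3 (126 nt), and a non-coding gene on the same strand shares 5702 nt with REL. The strand setting of the counting is not given in the sources used here, so that reads of the opposite-strand overlaps could have been counted to the members. Reads of the stretch shared with REL lie on the same strand and could have been counted to REL under any strand setting.

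**Figure D3:**
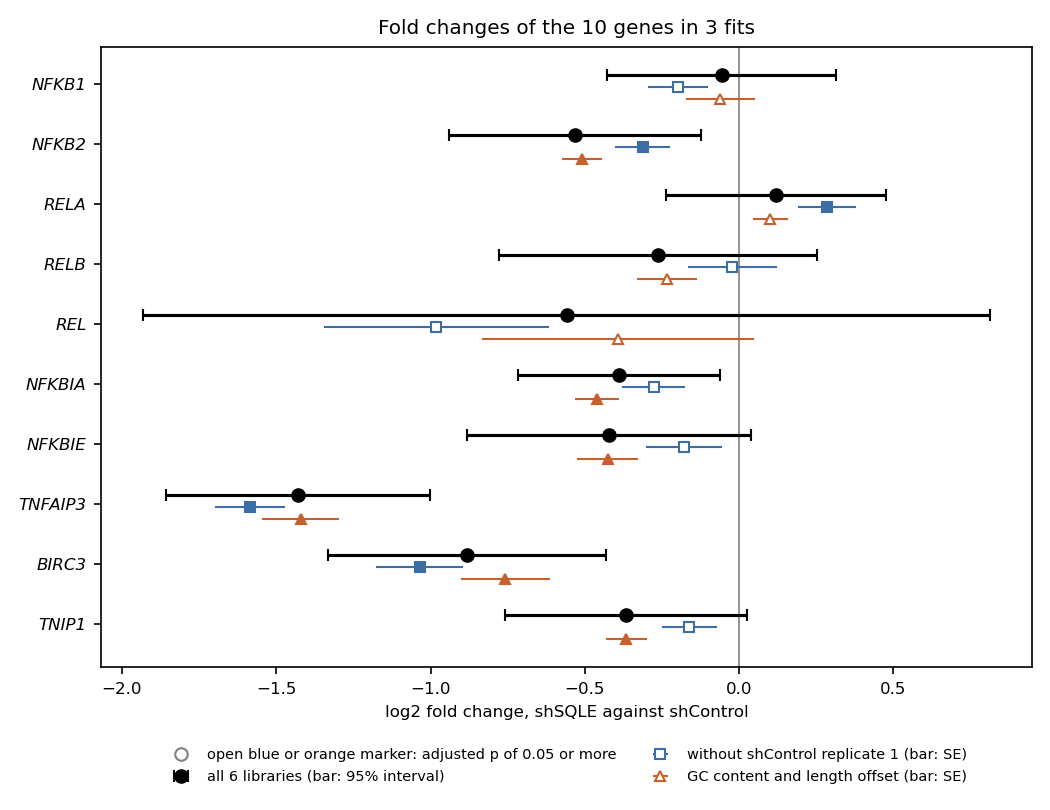
Log2 fold changes of shSQLE against shControl for the 10 genes with all 6 libraries (black, bars are 95% intervals, markers filled whatever the p), without shControl replicate 1 (blue squares) and with the GC content and length offset (orange triangles), where bars are SEs and filled markers passed an adjusted p of 0.05. TNFAIP3 lies between -1.59 and -1.42 in all 3 fits, and RELA lies above 0 in all 3.

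The signs of the 10 log2 fold changes were the same with all 6 libraries, with the GC content and length offset fitted in every library, and without shControl replicate 1, while the count of members past the threshold differed among these fits. With the GC content and length offset, 6 members were called lower, namely NFKB2 and all 5 inhibitors, in a fit that called 10.4% of all genes lower and 7.14% higher. The log2 fold changes of the 5 newly called genes moved little, to -0.51 in NFKB2 (adjusted p = 0.000717), -0.46 in NFKBIA (adjusted p = 0.00228), -0.43 in NFKBIE (adjusted p = 0.0173), -0.76 in BIRC3 (adjusted p = 0.00651) and -0.37 in TNIP1 (adjusted p = 0.00537), and their SEs shrank. On counts adjusted in this way the libraries of the groups did not overlap in 7 members with shSQLE lower, which were the same 6 and RELB, and in RELA with shSQLE higher, against 18.8% and 17.7% of all genes. Without shControl replicate 1, 3 members were lower (TNFAIP3, BIRC3 and NFKB2), where 18.3% of all genes were, and RELA was higher. The log2 fold changes of the inhibitors NFKBIA, NFKBIE and TNIP1 in that fit were -0.28, -0.18 and -0.16 and did not pass.

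Between genes, levels were compared per length, in TPM, the count divided by the length of the canonical transcript and scaled to the same total in every library. In shControl the order of TPM levels was TNIP1 (137 ± 12.3, SD, n = 3 here and for the following), NFKBIA (126 ± 2.17), NFKB2 (66.9 ± 6.28), RELA (57.8 ± 2.21), RELB (28.2 ± 3.33), NFKB1 (27.7 ± 8.37), TNFAIP3 (17.7 ± 5.67), NFKBIE (14.99 ± 1.86), BIRC3 (4.502 ± 1.51) and REL (0.423 ± 0.326). Neighbours whose shControl libraries overlapped, and whose order is therefore not set by these data, were TNIP1 and NFKBIA, RELB and NFKB1, NFKB1 and TNFAIP3, and TNFAIP3 and NFKBIE. Between NFKB2 and RELA, and from NFKBIE down to BIRC3 and REL, the libraries of neighbours did not overlap. In shSQLE the order of the means kept TNIP1 (103 TPM) and NFKBIA (92.1 TPM) at the top and BIRC3 (2.27 TPM) and REL (0.269 TPM) at the bottom. RELA (60.2 TPM) stood above NFKB2 (44.6 TPM), NFKB1 (24.9 TPM) above RELB (22.6 TPM), and NFKBIE (10.8 TPM) above TNFAIP3 (6.14 TPM). The middle of the order also depends on the length used: with the union of all exons in place of the canonical transcript, NFKBIE, TNFAIP3 and NFKB1 took places 6, 7 and 8 in shControl.

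**Figure D4:**
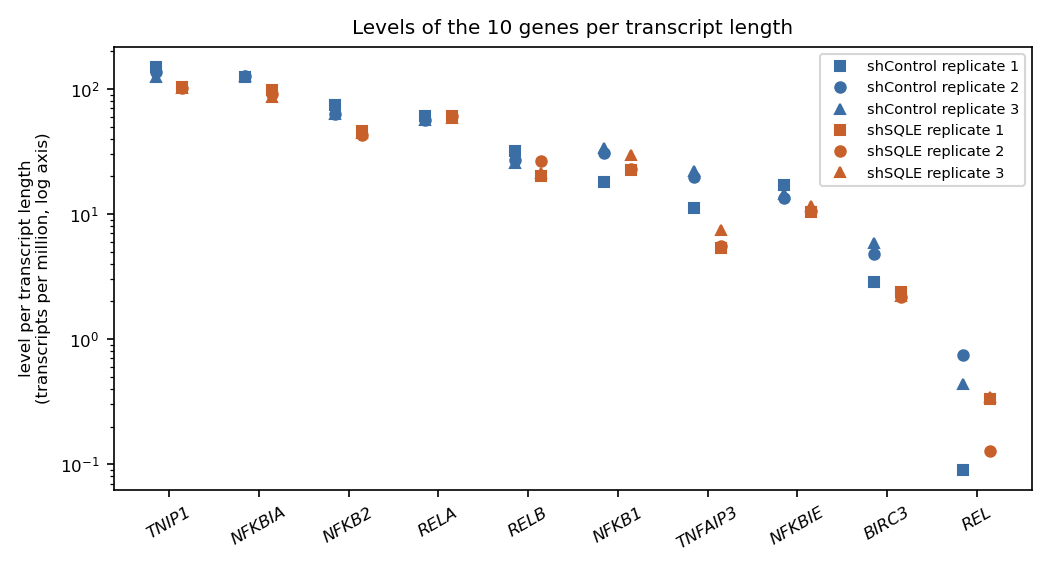
TPM levels of the 10 genes on a log axis, with each library as a point (blue for shControl, orange for shSQLE) and the genes in the order of their shControl means. Levels run from 137 TPM for TNIP1 down to 0.423 TPM for REL in shControl, and the shSQLE points of TNFAIP3 lie below those of NFKBIE.

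Within a library, 3 ratios of TPM levels were formed between an inhibitor or precursor and the subunit it pairs with, chosen after the values had been seen. The ratio of NFKBIA to RELA, an inhibitor and its target, was 2.06, 2.25 and 2.27 in shControl and 1.63, 1.49 and 1.46 in shSQLE. All shSQLE ratios were below all shControl ratios, with means of 1.53 ± 0.0860 and 2.19 ± 0.118 (SD, n = 3 each; two-sided exact permutation test, p = 0.1, which is the smallest p that 3 against 3 libraries allow, and 0.15 adjusted over the 3 ratios). The log2 of the mean shSQLE ratio over the mean shControl ratio was -0.52, and between -0.57 and -0.49 when any 1 library was left out. The ratio of NFKB2 to RELB was 2.32, 2.36 and 2.45 in shControl (2.38 ± 0.0676) and 2.29, 1.64 and 2.09 in shSQLE (2.01 ± 0.336). The groups did not overlap (exact permutation p = 0.1, adjusted 0.15), but shSQLE replicate 1 lay close to shControl replicate 1. The lowest library was shSQLE replicate 2, with 1.64. How often ratios of other gene pairs fail to overlap was not tested. The ratio of NFKB1 to RELA overlapped, with 0.483 ± 0.160 in shControl and 0.415 ± 0.0741 in shSQLE (exact permutation p = 0.6, adjusted 0.6).

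TNFAIP3 was the member past the threshold, and the genes whose pattern over the 6 libraries was most like it were RASGRF2, GREM1 and PARM1. Their log2 normalized counts, each centred on its own mean, differed from those of TNFAIP3 by a root mean square of 0.0589, 0.0756 and 0.0773 among 9878 genes averaging 100 or more normalized counts. Their log2 fold changes were -1.46, -1.39 and -1.56, beside -1.43 for TNFAIP3. Genes picked for a like pattern over the same 6 libraries must have like fold changes, so this closeness is no further result.

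Around the 10 genes, the wider pathway was followed in 6 lists with 109 genes, of which 98 were tested. Of these 98, 11 were called lower and 3 higher. Outside the list of target genes, 2 of the 63 tested were called lower, NFKBIZ and IRAK2, and 0 higher, which is near the 2.84% of all genes called lower and is no result about these lists. NFKBIZ encodes the atypical nuclear IkB-zeta, a cofactor that is itself induced by NF-kB. Its normalized counts were 418, 678 and 654 in shControl and 280, 183 and 190 in shSQLE, without overlap, and the mean fell to 37.3% of control, a log2 fold change of -1.42 (SE 0.24, adjusted p = 0.0207, edgeR). This call held in 10 of 14 alternatives, but when a library was left out it held only without shControl replicate 1 or shSQLE replicate 1, and its adjusted p reached 0.137. A stretch of 194 nt of its exons is shared with NXPE3.

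IRAK2, a kinase of the interleukin-1 and Toll-like receptor complex, had 329, 347 and 403 normalized counts in shControl and 211, 224 and 242 in shSQLE. The groups did not overlap, and the log2 fold change of -0.68 (SE 0.14, adjusted p = 0.0420, edgeR) passed in 7 of 14 alternatives, of those leaving out a library only without shControl replicate 1, with adjusted p up to 0.247. In the list of IkB kinase subunits and related kinases, 1 of 18 genes was therefore called, with a median log2 fold change of -0.21. Without shControl replicate 1, 10 of these kinases were called lower and 1 higher, in the fit that called 18.3% of all genes lower and 15.6% higher. The next genes by p in this list were MAP3K14, the NIK kinase of the non-canonical branch (log2 fold change -0.50, adjusted p = 0.0674, edgeR), and IRAK4 (-0.65, adjusted p = 0.104), which shares 103 nt of exons with TWF1 on the opposite strand.

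Of the 5 other IkB proteins and nuclear cofactors, NFKBIZ was the 1 gene called, and the median was 0.07 on the log2 scale. Of the 5, 2 were called lower and 1 higher without shControl replicate 1. For this list and those that follow, that fit called 18.3% of all genes lower and 15.6% higher. BCL3, a nuclear IkB protein that works with p50 and p52, had a log2 fold change of -0.74 (adjusted p = 0.128), and NKRF, a repressor, 0.12 (adjusted p = 0.771). Exons of NKRF share 956 nt with UBE2A on the opposite strand. Among 19 adaptors and ubiquitin ligases, 0 were called by edgeR, 1 was lower and 1 higher at an unadjusted p under 0.05, and the median was -0.13. The 2 genes at that unadjusted p were BTRC, which marks IkB for degradation (-0.57, adjusted p = 0.204), and UBE2N, a ubiquitin-conjugating enzyme (0.27, adjusted p = 0.262). MYD88, the adaptor of interleukin-1 receptors, was next (-0.19, adjusted p = 0.547). Without shControl replicate 1, 5 of these adaptors and ligases were called lower and 1 higher. Exons of UBE2N share 2474 nt with NUDT4 on the opposite strand. The 10 tested partners of A20 and deubiquitinases had a median of -0.08, 0 called, and 1 lower at an unadjusted p under 0.05, ZC3H12A, an RNase that degrades inflammatory transcripts (-0.55, adjusted p = 0.238). Of these 10, 2 were called lower without shControl replicate 1. USP4 and ITCH were at 0.17 and -0.16 (adjusted p = 0.655 and 0.791). Exons of USP4 share 89 nt with C3orf62 on the same strand. Of 11 receptors tested, 0 were called, with 4 lower and 1 higher at an unadjusted p under 0.05, against 9.89% and 4.83% of all genes. DESeq2 called IL1R1 and IL1RAP lower, the offset fit called 3 receptors lower and 1 higher, and the fit without shControl replicate 1 called 4 lower and 1 higher. Over all genes, DESeq2 called 4.56% lower and 1.30% higher, and the offset fit 10.4% and 7.14%. IL1R1, the signalling receptor of interleukin-1, had 20.8, 28.0 and 48.1 normalized counts in shControl and 13.7, 8.87 and 13.4 in shSQLE (log2 fold change -1.43, SE 0.39, adjusted p = 0.112). Its co-receptor IL1RAP was at -0.75 (adjusted p = 0.142), and TNFRSF11A, the receptor RANK, at 0.45 (adjusted p = 0.149).

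The other targets of NF-kB moved in both directions. Of 35 tested, 9 were called lower and 3 higher, with a median log2 fold change of -0.31, against 2.84% and 0.369% of all genes. The balance of these calls moved with the libraries: 12 were lower and 9 higher without shControl replicate 1 (median -0.11), 15 lower and 6 higher with the offset, and 5 or 6 lower and 3 higher when any other library was left out. Over all genes, 18.3% were called lower and 15.6% higher without shControl replicate 1, and 10.4% and 7.14% with the offset. Without any other library, 101 to 198 of the 12539 to 12610 genes tested were called lower and 4 to 13 higher. The cytokine IL6 (-3.67, adjusted p = 0.000299), the prostaglandin synthase PTGS2 (-2.99, adjusted p = 0.000576) and the chemokine CCL5 (-3.36, adjusted p = 0.00103) fell, whereas IL1A (1.25), PTX3 (1.12) and PLAU (0.81), named after their values were seen, rose (adjusted p = 0.00185, 0.00260 and 0.00464). Exons of PTX3 overlap those of VEPH1 (71 nt), and exons of IL6 those of STEAP1B (46 nt), both on the opposite strand. A match to the NF-kB consensus lay in the promoter windows of 15 of the 33 other targets with a window (45.5%). The share was highest in the other IkB proteins and nuclear cofactors, with 4 of 5 (80%). It was 2 of 11 for A20 partners and deubiquitinases (18.2%) and 2 of 15 for adaptors and ubiquitin ligases (13.3%). For kinases it was 2 of 16 (12.5%), and for receptors 0 of 11. Among tested genes with a window, 9.14% held a match.

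**Figure D5:**
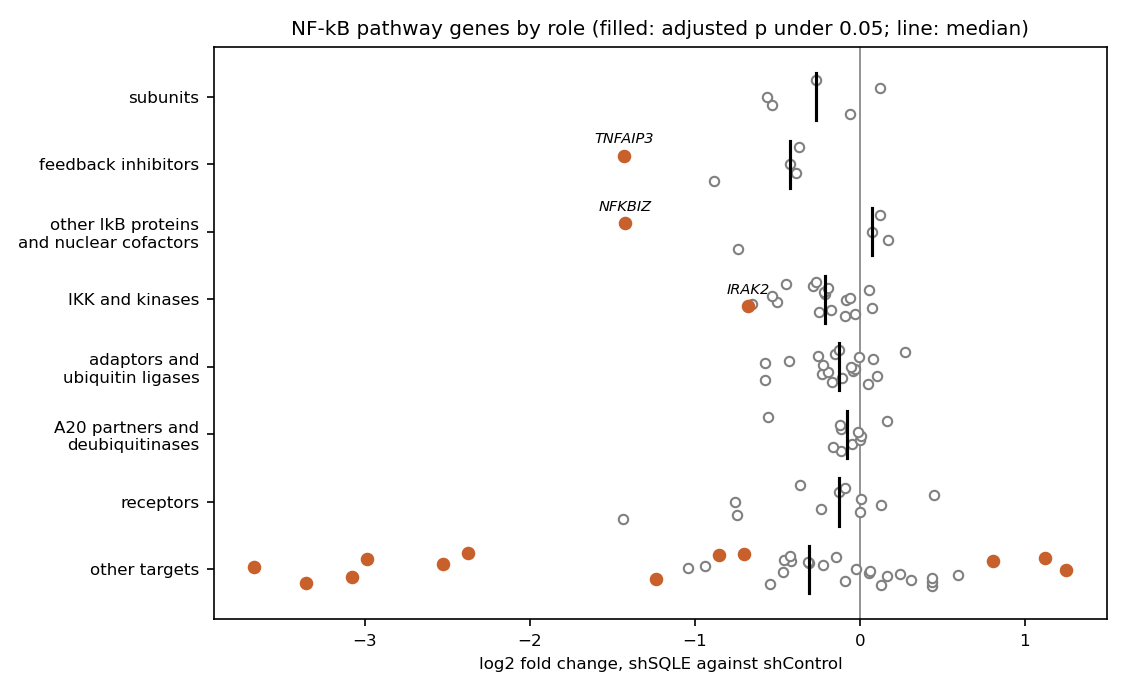
Log2 fold changes of shSQLE against shControl for each tested gene of the subunits, the inhibitors and the 6 wider lists, with the median of each list and filled markers for genes past an adjusted p of 0.05. TNFAIP3, NFKBIZ and IRAK2 are the genes past it outside the other targets, where 9 genes lie below 0 and 3 above 0 among those called.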

How the data were processed

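RNA of 6 U2OS libraries (3 shSQLE, 3 shControl) was sequenced after poly(A) selection. The deposited table holds raw counts by gene, which the authors made with fastp 0.20.0, STAR 2.7.9a on hg38 and featureCounts 2.0. The annotation release, the strand setting and the handling of multi-mapping reads are not given in the sources used here. Counts were fitted over the whole table with edgeR 4.0.16 in R 4.3.3 (filterByExpr, TMM, quasi-likelihood F test, condition as the only term, Benjamini-Hochberg adjustment, threshold 0.05). This main edgeR fit was also run on simulated counts, with the outcome not given here. Normalized counts are scaled to the mean effective library size, and SEs of log2 fold changes are the absolute estimate over the square root of F. Lengths, GC content and loci come from GENCODE v44, and promoter windows from RefSeq. The alternatives were DESeq2 1.42.0, limma-voom (limma 3.58.1), RLE size factors, library size only, other filters and thresholds, a replicate block, GC content and length offsets (mgcv 1.9.3) and leaving out each library.

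The members and the lists were chosen with earlier results of these data known. Genes named are the 10 members, SQLE, the 3 genes of each wider list with the smallest p, and the 3 genes most like a called member. IL1A, PTX3, PLAU and the markers given with values were named outside this rule, after their values were seen. The ratios, and the overlap of the groups on offset-adjusted counts, were added after the data were seen. SOD2, 1 of the 109 genes of the wider lists, was not analysed here, and 1 further leukocyte marker is left out.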

Additional observations from a re-analysis of the deposited data

How the results depend on the processing

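TNFAIP3 was past the threshold in 12 of 14 alternatives. The number of members called lower, 1 with all 6 libraries, was 2 with DESeq2, 2 without a filter, 2 at an adjusted p of 0.1 and 6 with the GC content and length offset, and from 0 to 3 when each library was left out in turn. It was 0 without shSQLE replicate 1 or 2, and 3 without shControl replicate 1. Without shSQLE replicates 1 and 2 in turn, edgeR gave 4 and 3 members lower at an unadjusted p under 0.05. Members called higher numbered 0 to 1 when a library was left out. Members lower at an unadjusted p under 0.05 were 7 with the offset and 2 to 5 without a library, and members higher at that p were 0 to 1. With all 6 libraries, 9.89% of all genes were lower and 4.83% higher at that p. Such shares are not given here for the other fits, so the member counts at that p are no result about the members. Of the wider lists, 17 genes were called lower with DESeq2 and 27 with the offset, which also called 7 higher, and without a library 5 to 35 were called lower and 3 to 13 higher. Over all genes, 354 were called lower and 46 higher, against 568 and 162 with DESeq2, 1294 and 889 with the offset and 2300 and 1964 without shControl replicate 1. As shares of the genes tested, these were 2.84% and 0.369%, 4.56% and 1.30%, 10.4% and 7.14%, and 18.3% and 15.6%. NFKB1 ranged from -0.20 to 0.057 (log2) and REL from -0.98 to 0.11 when a library was left out, and of 139 log2 fold changes under an alternative these were the genes of the 2 that changed sign. What made the counts of calls move was not tested. The sources do not say whether replicate numbers pair the samples. Deviations of same-numbered libraries from their groups correlated at 0.14, -0.43 and 0.54. Deviations within a group of 3 depend on one another, so these values cannot decide whether the numbers are paired. With a replicate block, 1 member (TNFAIP3, -1.41) was called lower. REL, with 7 to 59 counts, was the member with the lowest counts.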
